A study of Rattus norvegicus with 24 samples.

Results

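The genes described here encode the collagens, the structural proteins of the connective tissue around muscle fibres, and the enzymes that hydroxylate, fold, trim and cross-link them. They were chosen by symbol alone: collagen chains, prolyl and lysyl hydroxylases, lysyl oxidases, the chaperone Serpinh1, the procollagen protease Bmp1 and its enhancer Pcolce. Of 13458 gene symbols in the deposited table, 46 were members, with 28 collagen chains and 18 enzymes. Some collagen chains of muscle, among them Col4a2, Col6a1, Col6a3 and Col12a1, had no row under these symbols and could not be analysed.

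The tibialis anterior (TA), a dorsiflexor of the ankle, was taken for RNA sequencing from aged male Fischer 344 rats (23 ± 1 months). In 9 animals an osmotic pump delivered tetrodotoxin (TTX), which blocks voltage-gated sodium channels, to the common peroneal nerve of the left leg, so that the left TA could not contract. The left TA was taken after 6 to 7 days of TTX (atrophy, n = 3), after the same exposure and 9 days without TTX (recovery, n = 3), or after both of these and a second exposure of 5 to 6 days (repeated atrophy, n = 3), and the right TA of these 9 animals, which received no TTX and no surgery, formed the control group. Both limbs of 3 sham-operated animals were also sequenced (sham left, sham right), 1 animal at each of the 3 time points. The control limbs share an animal with the treated limbs, whole muscle was used, and a block of the nerve leaves the fibres innervated, so the model is disuse and not denervation. The comparisons ask how collagen transcripts stood after a first disuse, after the return of nerve activity and after a second disuse.

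A collagen molecule is a triple helix of 3 chains. Types I and III, with small amounts of type V and XI that set fibril diameter, build the fibrils of the epimysium, perimysium and endomysium, and FACIT collagens such as type XIV sit on the surface of these fibrils. Type IV forms the network of the basement membrane, type VI the beaded filaments that link it to the fibrils, and types XV and XVIII (multiplexins) carry glycosaminoglycan chains in and beside the basement membrane. Inside the cell, prolyl 4-hydroxylases stabilise the helix, lysyl hydroxylases prepare the cross-linking sites and Serpinh1 (HSP47) binds the folded helix. Outside it, Bmp1 removes the C-propeptide, Pcolce enhances that step, and lysyl oxidases start the cross-links. Fibroblasts and fibro-adipogenic progenitors are the main source of fibrillar collagen in muscle.

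Values are counts scaled to a total of 1000000 in each library (CPM). The inferred depths ran from 18.9 to 30.9, with a unit of 1000000 reads. All 46 members were above 0 in at least 3 of the 18 limbs of the TTX animals and were tested. The mean of 14 of them stayed below 1 CPM in all 4 groups, and 22 reached a mean of 10 CPM in at least 1 group. Fold changes are differences of log2(CPM + 1) with their standard error (SE), tested by limma over 14031 rows of the table. A gene passed (was called higher or lower) where its fold change reached 1.2 with an adjusted p, by Benjamini and Hochberg over all those rows, no larger than 0.05. Because each treated limb has a control limb in the same animal, every test was also run with the animal as a block, which compares left with right within animals. The summed CPM of 8 myofibre genes was 168177 to 225810 in the control limbs, 79102 to 179801 after atrophy, 176337 to 192505 after recovery and 109815 to 142160 after repeated atrophy.

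After recovery, in the fit without a block, the fibrillar collagens Col3a1, Col1a1 and Col1a2 and the fibril-bound Col14a1 were the members furthest from control. Within animals the log2 difference of Col5a2 (1.768) was above those of Col1a1 (1.748) and Col1a2 (1.636). Relative to the control limbs, 13 members were higher and 2 lower after recovery, where 4.4% of all rows were called higher and 3.33% lower. After atrophy, 1 member was higher and 1 lower, against 20.3% and 2.33% of all rows. After repeated atrophy, 4 members were higher and 3 lower, against 28.1% and 6.24%. With the animal as a block, 0 of the 46 members passed after atrophy (0% of all rows) and, again, 0 after recovery (0.0641% of all rows), while 5 passed after repeated atrophy (27.1% of all rows). At an unadjusted p under 0.05 in the block fit, there were 14, 17 and 8 members, in that order, beside 19.1%, 18% and 39.8% of all rows. The recovery calls below therefore rest on the fit in which all 9 right limbs stand as control, and the adjusted p of the block fit is given beside each gene. When each of the 9 animals was left out in turn, Col3a1, Col1a1, Col5a2 and Col14a1 kept their recovery calls throughout. Without animal 369 or 371 Col11a1, Col5a1, Col6a2, Col8a1, Lox, Loxl1, Loxl2, P4ha2 and Pcolce lost theirs, and Col1a2 and Col7a1 lost theirs without animal 369. Other animals also ended calls: Col6a2, Lox, Loxl1, Loxl2, P4ha2 and Pcolce were lost without animal 365, and Pcolce and Loxl1 kept theirs in only 3 of 9 cases. Col7a1 was also lost without animal 370, and Col8a1 without animal 362, 366 or 372. After repeated atrophy Plod2, Bmp1, P4ha1 and Col26a1 kept their calls in all 9 cases, while P3h1 and Loxl4 kept theirs in 7 and Col18a1 in 3. After atrophy Plod2 was lost without animal 362 or 372, and P4ha1 in 4 of 9 cases.

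**Figure D1:**
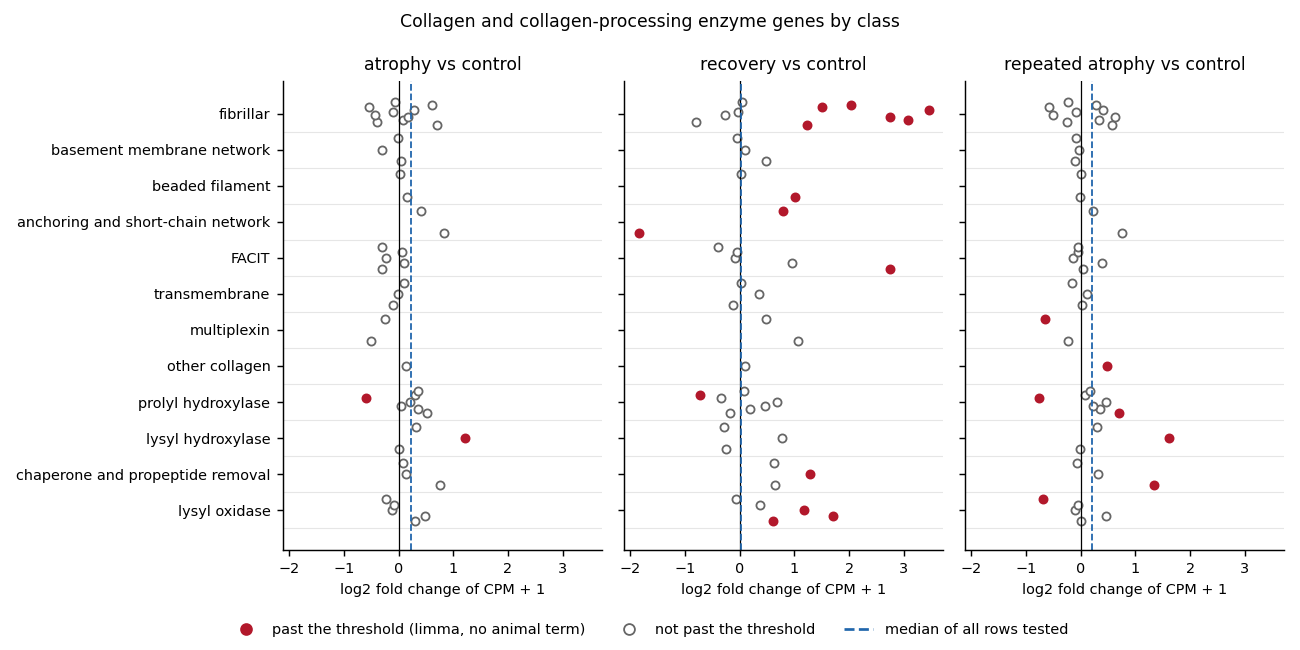
Log2 fold change of each of the 46 members against the control limbs (x axis, log2 of CPM + 1), by class of collagen or enzyme step (y axis), for the 3 treated groups. Filled points passed the threshold in the fit without an animal term, and the dashed line is the median of all rows tested. Called fibrillar points lie to the right in the recovery panel (6 of 10), and none of the 10 fibrillar points is filled in the other panels.

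Among the fibrillar collagens, 6 of 10 members were higher after recovery: Col3a1, Col1a1, Col1a2, Col5a2, Col5a1 and Col11a1. The class median was 1.37 on the log2 scale, beside 0.02 for all rows. After atrophy and after repeated atrophy 0 of 10 passed, with class medians of 0.01 and 0.10 beside 0.22 and 0.20 for all rows. By unadjusted p under 0.05 these were 2 and 1 of 10, beside 37.1% and 43.3% of all rows. Paired by animal, the class medians were 0.896 in recovery, 0.443 in atrophy and 0.142 in repeated atrophy, with 7, 5 and 1 of 10 at an unadjusted p under 0.05. The medians of all rows in that fit were 0.082, 0.166 and 0.201, and 18%, 19.1% and 39.8% of all rows had such a p. The summed level of the 10 genes was 928.3, 1497 and 1875 CPM in the 3 recovery limbs, 79.01 to 443.7 CPM in the control limbs (median 152.9), 87.26, 220.8 and 447.5 CPM after atrophy, and 155, 233.9 and 334.7 CPM after repeated atrophy.

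Col3a1 encodes the chain of type III collagen, which is abundant in the endomysium and in healing tissue. It lay between 26.32 and 166.8 CPM in the control limbs, with a median of 48.97 CPM. The recovery limbs held 713.7, 432.8 and 939.1 CPM, the atrophy limbs 183.9, 27.89 and 73.2 CPM, and the repeated atrophy limbs 53.38, 129.9 and 72.6 CPM. All 3 recovery limbs were above every other limb. Of the other treated limbs, 1 atrophy limb lay just above the control range and the rest lay within it. The mean after recovery was 9.57 times that of the control limbs (log2 fold change 3.46, SE 0.55, limma adjusted p = 0.0023). In the block fit the log2 fold change was 2.33, with an adjusted p of 0.08. In whole muscle, more cells that make a transcript and more of it in each cell cannot be told apart.

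The 2 chains of type I collagen, the main tensile fibre of the muscle's connective tissue, were also highest in the recovery limbs. Col1a1 held 324.1, 205.1 and 375.4 CPM after recovery, against 12.44 to 118.8 CPM (median 29.54) in the control limbs. It held 81.81, 12.06 and 44.74 CPM after atrophy and 25.75, 60.26 and 50.15 CPM after repeated atrophy. The recovery limbs did not overlap with any other group, and the atrophy and repeated atrophy limbs lay inside the control range, except for 1 atrophy limb just below it. Col1a1 was 6.75 times the control mean after recovery (log2 fold change 3.07, SE 0.61, adjusted p = 0.0073, and 0.11 in the block fit). Col1a2 held 348.3, 213.7 and 433.8 CPM after recovery against 16.29 to 132.2 CPM (median 39.2), or 5.76 times the control mean (log2 fold change 2.75, SE 0.57, adjusted p = 0.0092, and 0.13 in the block fit). It held 127.7, 18.4 and 59.99 CPM after atrophy and 48.48, 101.5 and 77.22 CPM after repeated atrophy. The recovery limbs of Col1a2 stood clear of all others. Type I collagen has 2 α1 chains and 1 α2 chain in each molecule. Per kilobase of transcript, the Col1a1 level was 0.663 to 0.735 of the Col1a2 level in the recovery limbs, 0.349 to 0.688 in the control limbs, 0.491 to 0.572 after atrophy and 0.407 to 0.498 after repeated atrophy, a description that was not tested.

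Type V collagen nucleates type I fibrils, and its chains differed in size of change. Col5a1 held 22.78, 14.33 and 25.34 CPM after recovery, 3.679 to 14.29 CPM (median 5.474) in the control limbs, 5.948, 2.382 and 5.01 CPM after atrophy and 2.345, 4.504 and 5.954 CPM after repeated atrophy. The lowest recovery limb was only just above the highest control limb. Its log2 fold change after recovery was 1.499 (SE 0.36, adjusted p = 0.019, and 0.18 in the block fit). Col5a2, singled out after its values were seen, had the smallest adjusted p of all members after recovery. It held 75.51, 52.55 and 89.43 CPM there against 12.03 to 24.38 CPM (median 16.05) in the control limbs, and 37.76, 16.29 and 27.39 CPM after atrophy and 13.77, 30.22 and 19.39 CPM after repeated atrophy. All recovery limbs were above every other limb, and the log2 fold change was 2.04 (SE 0.26, adjusted p = 0.00075, and 0.092 in the block fit). Per kilobase, Col5a1 stood at 0.299 to 0.331 of Col5a2 in the recovery limbs, at 0.161 to 0.201 after atrophy and at 0.164 to 0.337 after repeated atrophy, against 0.252 to 0.727 in the control limbs. Col5a3, the third type V chain, had means of 7.482 CPM in control and 7.639 CPM after recovery and did not pass. Col11a1, a minor fibril chain near the detection limit, averaged 0.743 CPM in control and 2.89 CPM after recovery (log2 fold change 1.24, SE 0.31, adjusted p = 0.023, and 0.24 in the block fit), with overlapping limbs.

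**Figure D2:**
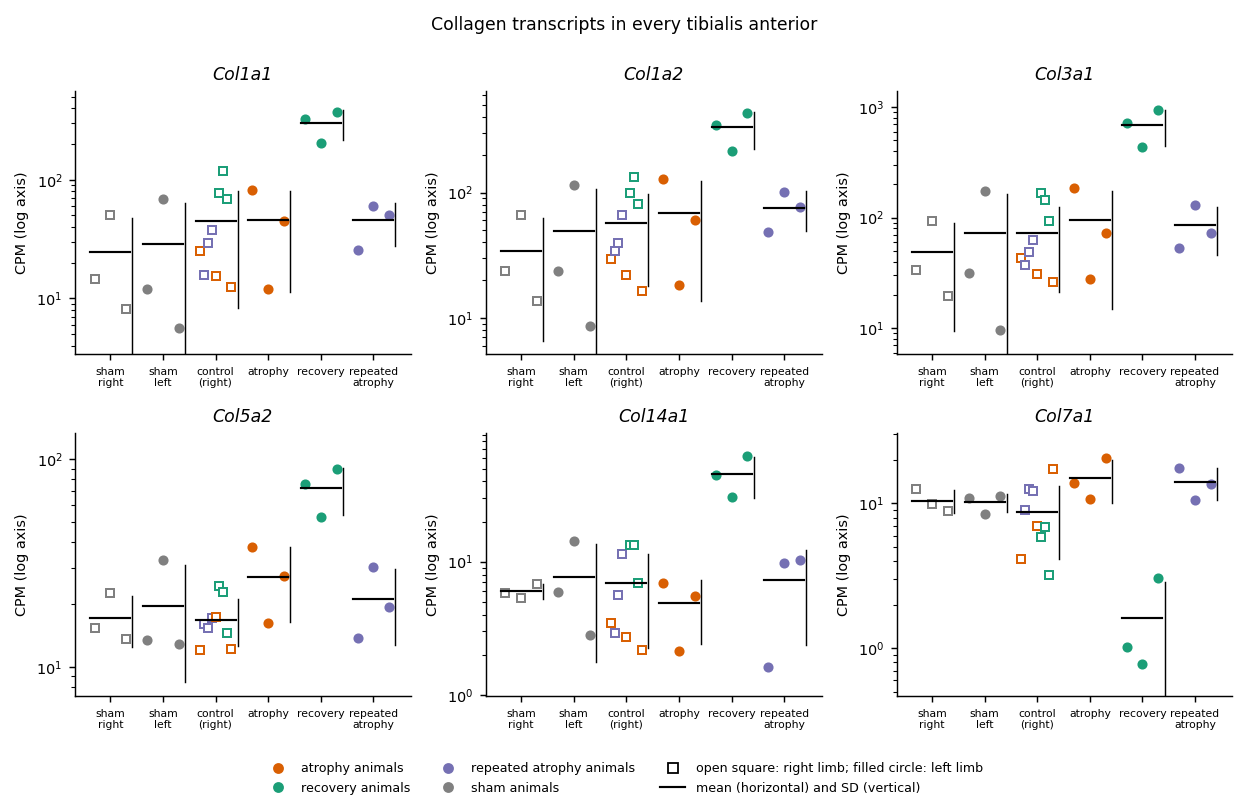
CPM of 6 collagen genes (y axis, log scale) in every limb by group (x axis), with open squares for right and filled circles for left limbs, coloured by the group of the animal, and group means (horizontal) with SD (vertical, running off the log axis where the SD nears or exceeds the mean). The filled recovery points lie above all other limbs for Col1a1, Col1a2, Col3a1, Col5a2 and Col14a1 and below all control limbs for Col7a1, and the open squares of the recovery animals are the highest of the control group for Col1a1, Col1a2 and Col3a1.

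The promoter windows of the fibrillar members that were higher after recovery are shown, where the reference table held them, so that genes that moved together can be compared. The windows are the 250 bases before the start of transcription in RefSeq (build GRCr8), 5′ to 3′ on the strand of the gene, and 37 of the 46 members had one. Col1a1, Col2a1, Col3a1, Col6a2, Col14a1, Col9a3, Bmp1, Lox and Loxl2 had no entry. Capitals mark the motif CCAAT, the motif TATAA and the motif GGGCGG, each searched on both strands, so that the reverse complement of a motif is in capitals too.
Col1a2, chr4:33518307-33518556, plus strand: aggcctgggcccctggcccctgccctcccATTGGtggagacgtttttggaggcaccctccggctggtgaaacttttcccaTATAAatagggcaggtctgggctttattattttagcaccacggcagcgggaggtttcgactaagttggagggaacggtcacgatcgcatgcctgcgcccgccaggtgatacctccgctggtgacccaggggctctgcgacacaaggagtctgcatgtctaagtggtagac
Col5a1, chr3:31606630-31606879, plus strand: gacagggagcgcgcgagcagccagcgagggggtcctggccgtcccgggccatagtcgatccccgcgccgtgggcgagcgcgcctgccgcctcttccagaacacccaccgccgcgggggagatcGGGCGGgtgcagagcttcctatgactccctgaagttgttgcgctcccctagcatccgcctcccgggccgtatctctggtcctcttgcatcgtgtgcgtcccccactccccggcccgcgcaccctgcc
Col5a2, chr9:55090152-55090401, minus strand: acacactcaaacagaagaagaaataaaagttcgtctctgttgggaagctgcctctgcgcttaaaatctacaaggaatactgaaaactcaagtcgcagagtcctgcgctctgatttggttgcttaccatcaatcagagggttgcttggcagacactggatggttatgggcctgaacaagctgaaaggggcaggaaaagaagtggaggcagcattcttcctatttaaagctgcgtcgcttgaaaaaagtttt
Col11a1, chr2:204508886-204509135, plus strand: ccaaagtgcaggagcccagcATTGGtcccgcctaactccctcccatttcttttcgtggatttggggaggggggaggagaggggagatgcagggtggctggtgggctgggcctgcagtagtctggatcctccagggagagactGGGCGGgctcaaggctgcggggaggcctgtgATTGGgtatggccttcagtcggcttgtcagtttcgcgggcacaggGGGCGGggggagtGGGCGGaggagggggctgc
The Col1a2 window held CCAAT and TATAA, Col11a1 held CCAAT and GGGCGG, Col5a1 held GGGCGG, and Col5a2 held none of these. On either strand, CCAAT was in 34% of all 33469 promoter windows and in 8 of 37 members, TATAA in 24% and 6 of 37, and GGGCGG in 30.5% and 22 of 37. The share of all windows counts every entry of a symbol, while each member is counted by its first window only. The AP-1 motif TGANTCA, which reads the same on both strands, was in 6.34% of all windows and in 0 of 37 members. The 2 orientations of TATAA can overlap each other. No marked motif was in all 4 of these windows, and a match is a description only.

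Of the FACIT collagens, 1 of 5 was higher after recovery. Col14a1, which binds to type I fibrils and is typical of tissue under tension, held 44.54, 30.82 and 61.95 CPM in the recovery limbs. The control limbs held 2.165 to 13.31 CPM (median 5.645), the atrophy limbs 6.934, 2.152 and 5.498 CPM, and the repeated atrophy limbs 1.633, 9.824 and 10.34 CPM. No recovery limb overlapped with another group. Its log2 fold change after recovery was 2.75 (SE 0.52, adjusted p = 0.0055, and 0.092 in the block fit), with a mean 6.67 times that of control. Col16a1 had a log2 fold change of 0.96 (SE 0.30, adjusted p = 0.057) and did not pass, although its recovery limbs did not overlap with control. It passed under a trimmed mean rescaling (adjusted p = 0.03), and the 3 type IX chains, which belong to cartilage, averaged below 1 CPM in every group.

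Col7a1 went the other way. It encodes the anchoring fibril collagen known from the skin's basement membrane. It held 1.012, 0.7777 and 3.064 CPM after recovery, against 3.186 to 17.18 CPM (median 6.999) in the control limbs, 13.9, 10.8 and 20.56 CPM after atrophy and 17.67, 10.64 and 13.74 CPM after repeated atrophy. All recovery limbs were below every control limb, although the highest of them lay close to the lowest control limb. Its log2 fold change after recovery was -1.84 (SE 0.38, adjusted p = 0.0088, and 0.17 in the block fit). Its promoter window is shown beside the fibrillar ones, with the same capitals.
Col7a1, chr8:118483114-118483363, plus strand: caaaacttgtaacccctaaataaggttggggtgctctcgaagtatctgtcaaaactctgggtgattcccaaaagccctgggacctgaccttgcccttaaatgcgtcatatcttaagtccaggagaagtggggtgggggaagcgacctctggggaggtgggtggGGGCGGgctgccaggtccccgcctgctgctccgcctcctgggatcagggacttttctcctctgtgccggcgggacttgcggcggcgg
It held GGGCGG alone of the 3 marked motifs. Col8a1, a short-chain network collagen of vessel walls, averaged 0.501 CPM in control and 1.63 CPM after recovery (log2 fold change 0.79, SE 0.23, adjusted p = 0.044), with overlapping limbs. In the block fit it was 0.82 (adjusted p = 0.10), with the left limb higher in 3 of 3 recovery animals.

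Of the type IV and type VI chains in the table, only Col6a2 was called after recovery. Col4a1, the most abundant type IV chain in the table, held 97.43, 87.59 and 85.83 CPM after recovery and 45.6 to 93.88 CPM (median 62.83) in the control limbs. It held 64.75, 46.3 and 96.21 CPM after atrophy and 48.61, 65.93 and 67.67 CPM after repeated atrophy, and 0 of 3 type IV chains passed in any of the 3 comparisons with control. Its log2 fold change after recovery was 0.48 (SE 0.22, adjusted p = 0.18). Col4a3 and Col4a4, the other type IV chains, averaged 0.502 and 0.146 CPM in control, and Col6a4, the other type VI chain, 0.0076 CPM. Their results rest on few reads. Col6a2, a chain of the beaded filaments, held 86.24, 63.73 and 96.82 CPM after recovery against 28.4 to 62.65 CPM (median 36.89) in the control limbs. The lowest recovery limb was barely above the highest control limb, and the log2 fold change was 1.01 (SE 0.27, adjusted p = 0.029, and 0.21 in the block fit). After atrophy Col6a2 held 54.18, 28.78 and 56.38 CPM and after repeated atrophy 27.97, 43.45 and 50.15 CPM, all below the recovery limbs.

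The multiplexins did not pass after recovery, and Col18a1 fell after repeated atrophy. Col18a1, the precursor of endostatin, held 4.187, 6.845 and 7.481 CPM in the repeated atrophy limbs against 7.37 to 13.67 CPM (median 10.50) in the control limbs. It held 6.424, 8.184 and 10.67 CPM after atrophy and 15.69, 11.3 and 16.68 CPM after recovery. In 1 limb the value overlapped with control. The log2 fold change after repeated atrophy was -0.66 (SE 0.23, adjusted p = 0.034) and -0.75 in the block fit (adjusted p = 0.033), and the left limb was below the right in 3 of 3 animals. Col15a1 held 62.71, 48.75 and 50.72 CPM after recovery and 11.37 to 59.17 CPM (median 22.09) in the control limbs, with a log2 fold change of 1.06 (SE 0.39, adjusted p = 0.096). After atrophy it held 26.89, 14.45 and 13.63 CPM and after repeated atrophy 14.78, 22.38 and 29.2 CPM.

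The remaining collagens were scarce. Col23a1, the most abundant of the 3 transmembrane collagens, averaged 0.732 CPM in control and 0.876, 0.734 and 0.536 CPM in the atrophy, recovery and repeated atrophy groups, and 0 of 3 passed against control. Col26a1, a small collagen described in gonads, was called higher after repeated atrophy at levels that correspond to a handful of reads. It held 0.628, 0.1419 and 0.5725 CPM there and 0 to 0.1474 CPM in the control limbs (log2 fold change 0.48, SE 0.10, adjusted p = 0.0019, and 0.028 in the block fit). Over all 28 collagens the median log2 fold change was 0.01 after atrophy, 0.22 after recovery and -0.02 after the second disuse.

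Over the 18 enzymes, 1 was higher and 1 lower after atrophy, beside 20.3% and 2.33% of all rows. After recovery 4 were higher and 1 lower, beside 4.4% and 3.33%. After repeated atrophy 3 were higher and 2 lower, beside 28.1% and 6.24%. The median log2 fold changes were 0.25, 0.42 and 0.20. Under the rescaling, which brought the median of all rows from 0.22 to 0.00 after atrophy and from 0.20 to -0.01 after repeated atrophy, the enzyme medians became -0.08 and -0.07 there. They lay near the median of all rows before and after, so no direction is given for the enzymes as a group in these comparisons.

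**Figure D3:**
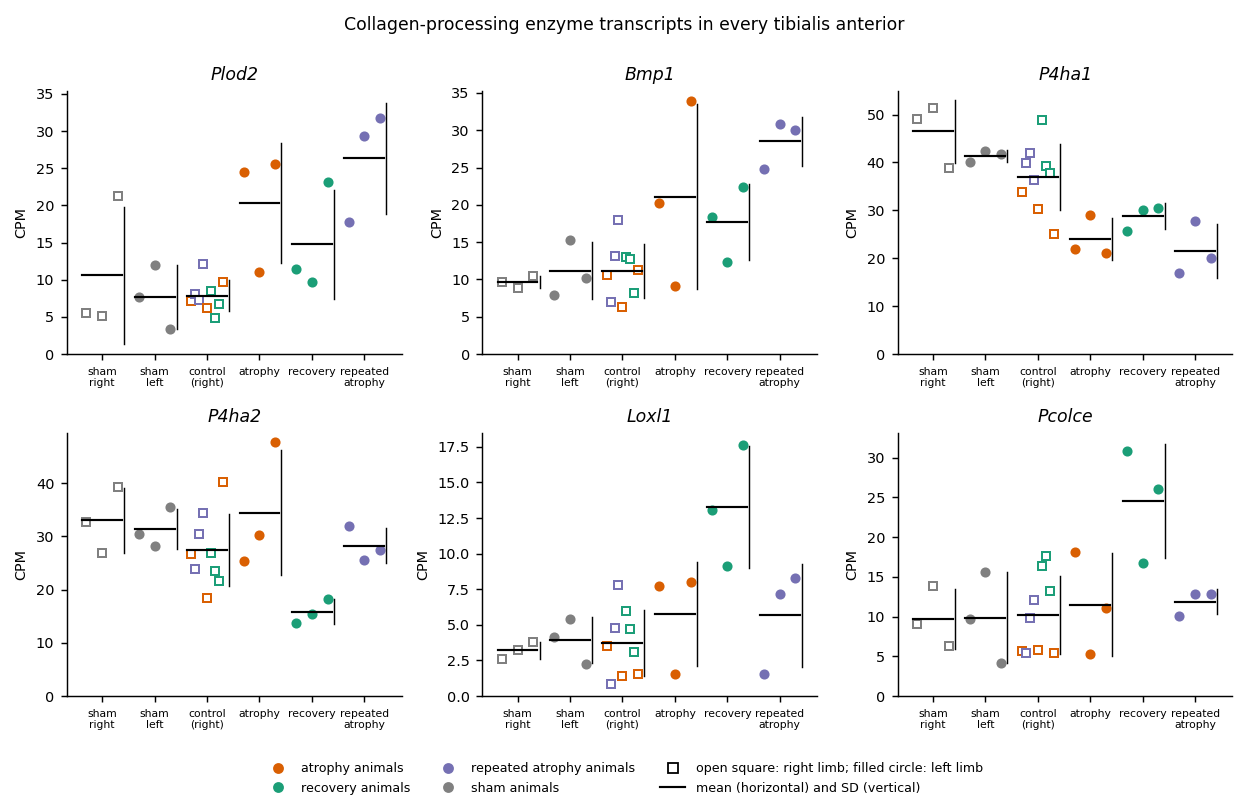
CPM of 6 collagen-processing enzyme genes (y axis, linear from 0) in every limb by group (x axis), with open squares for right and filled circles for left limbs, coloured by the group of the animal, and group means (horizontal) with SD (vertical). Plod2 and Bmp1 are above all control limbs in the 3 repeated atrophy limbs, P4ha2 is below all control limbs in the 3 recovery limbs, and Loxl1 is above all control limbs in the 3 recovery limbs.

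Plod2 encodes the lysyl hydroxylase of the telopeptides, whose product directs collagen to hydroxyallysine cross-links. It held 24.43, 11.03 and 25.51 CPM after atrophy, 11.41, 9.675 and 23.18 CPM after recovery and 17.76, 29.39 and 31.78 CPM after repeated atrophy, against 4.853 to 12.07 CPM (median 7.252) in the control limbs. The repeated atrophy limbs did not overlap with control, and 1 atrophy limb and 2 recovery limbs did. After atrophy its log2 fold change was 1.22 (SE 0.29, adjusted p = 0.0099, and 0.15 in the block fit). It was 0.77 after recovery (SE 0.29, adjusted p = 0.10), where only the rescaled fit called it (adjusted p = 0.044). Repeated atrophy gave the highest value, 1.62 (SE 0.29, adjusted p = 0.00052, and 0.007 in the block fit). The left limb was above the right in 9 of 9 TTX animals. The table holds a second, less abundant row under the symbol Plod2, with a log2 fold change of 0.94 after atrophy (adjusted p = 0.085) and 1.11 in the repeated atrophy group (SE 0.39, adjusted p = 0.033, and 0.024 in the block fit). In that row the left limb was above the right in 8 of 9 TTX animals, with atrophy animal 367 the exception. The call of that row was lost under the trimmed mean rescaling (adjusted p = 0.14) and when 1 animal was left out (highest adjusted p 0.26). Plod1 and Plod3, the other lysyl hydroxylases, had log2 fold changes of 0.00 and 0.29 after repeated atrophy and did not pass. The promoter window of Plod2, with the same capitals, is given for comparison.
Plod2, chr8:101964068-101964317, plus strand: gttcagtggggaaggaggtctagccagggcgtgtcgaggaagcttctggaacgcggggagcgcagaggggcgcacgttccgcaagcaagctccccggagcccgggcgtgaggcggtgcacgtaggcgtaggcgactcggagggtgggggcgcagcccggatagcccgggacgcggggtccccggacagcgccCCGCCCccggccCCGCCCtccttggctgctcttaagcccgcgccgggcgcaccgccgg
It held GGGCGG, on the other strand, and neither CCAAT nor TATAA.

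Bmp1, the procollagen C-proteinase that also activates lysyl oxidase, held 24.79, 30.82 and 30 CPM after repeated atrophy. The control limbs held 6.256 to 18.02 CPM (median 11.24), the atrophy limbs 20.22, 9.144 and 33.93 CPM and the recovery limbs 18.37, 12.32 and 22.42 CPM. Only the repeated atrophy limbs stood clear of the control range in all 3 animals. There its log2 fold change was 1.34 (SE 0.32, adjusted p = 0.0035, and 0.016 in the block fit). Pcolce, its enhancer, followed the fibrillar collagens with 30.87, 16.78 and 26.11 CPM after recovery against 5.427 to 17.62 CPM (median 9.8) in the control limbs (log2 fold change 1.28, SE 0.37, adjusted p = 0.041, and 0.35 in the block fit). Of the recovery limbs 1 lay inside the control range. Pcolce held 18.15, 5.264 and 11.09 CPM after atrophy and 10.05, 12.8 and 12.79 CPM after repeated atrophy. Serpinh1, the collagen chaperone and the most abundant member of the enzyme group per kilobase in control, had means of 52.79 CPM in control and 80.62 CPM after recovery and did not pass (log2 fold change 0.63, SE 0.26, adjusted p = 0.14).

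The prolyl hydroxylases split. P4ha1, a catalytic subunit of prolyl 4-hydroxylase, held 21.86, 29.05 and 21.15 CPM after atrophy and 16.83, 27.84 and 20.08 CPM after repeated atrophy. It held 25.66, 30.12 and 30.54 CPM after recovery and 24.98 to 48.76 CPM (median 37.71) in the control limbs. Its lowest control limb, from an atrophy animal, lay within the treated range, and the left limb was below the right in 9 of 9 TTX animals. P4ha1 had a log2 fold change of -0.60 after atrophy (SE 0.18, adjusted p = 0.026, and 0.40 in the block fit). In the repeated atrophy group it was -0.76 (SE 0.18, adjusted p = 0.0037, and 0.0097 in the block fit). P4ha2, the other main catalytic subunit, was instead lower after recovery, with 13.72, 15.39 and 18.33 CPM against 18.4 to 40.28 CPM (median 26.62) in the control limbs. It held 25.29, 30.35 and 47.76 CPM after atrophy and 31.86, 25.61 and 27.37 CPM after repeated atrophy. All 3 recovery limbs lay below every control limb, the highest of them only just, and the log2 fold change was -0.73 (SE 0.21, adjusted p = 0.041, and 0.22 in the block fit).

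P3h1, the prolyl 3-hydroxylase that works with cartilage-associated protein, held 17.04, 14.82 and 15.84 CPM after repeated atrophy against 6.863 to 14.63 CPM (median 8.743) in the control limbs. It held 13.97, 11.22 and 17.63 CPM after atrophy and 7.44, 7.941 and 9.483 CPM after recovery. The repeated atrophy limbs were above every control limb, with a log2 fold change of 0.69 (SE 0.21, adjusted p = 0.017, and 0.12 in the block fit). Under the trimmed mean rescaling it was 0.34 with an adjusted p of 0.21, so the call rests on the scaling. The other 4 prolyl hydroxylases, P3h2, P3h3, P3h4 and P4ha3, passed in none of the comparisons with control.

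Of the 5 lysyl oxidases, 3 were higher after recovery. Loxl1, known for elastic fibres as well as collagen, held 13.06, 9.128 and 17.65 CPM there against 0.8738 to 7.8 CPM (median 3.527) in the control limbs, 7.75, 1.575 and 8.004 CPM after atrophy and 1.549, 7.2 and 8.283 CPM after repeated atrophy. The recovery limbs were above every other limb (log2 fold change 1.71, SE 0.49, adjusted p = 0.041, and 0.13 in the block fit). Lox, which oxidises lysine in collagen and elastin, averaged below 1 CPM in every group and had a log2 fold change of 0.60 (SE 0.16, adjusted p = 0.029). In the block fit it was 0.69 (adjusted p = 0.15), with the left limb higher in 3 of 3 recovery animals. For Loxl2, at a mean of 3.07 CPM after recovery and 0.783 CPM in control, it was 1.18 (SE 0.32, adjusted p = 0.032, block fit 0.34), and within animals the left limb was above the right in 1 of 3 recovery animals. Loxl4 was lower after repeated atrophy, at a mean of 0.304 CPM against 1.15 CPM in the control limbs (log2 fold change -0.69, SE 0.23, adjusted p = 0.025, and 0.078 in the block fit).

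Directly between the treated groups, 8 members were higher and 2 lower in recovery than in atrophy, beside 3.34% and 14.5% of all rows. The higher ones were Col3a1, Col14a1, Col1a1, Col1a2, Col5a1, Col15a1, Col5a2 and Loxl2, and the lower ones Col7a1 and P4ha2. In repeated atrophy, 4 members were higher than in recovery (Col7a1, P3h1, P4ha2 and Col26a1) and 10 lower, beside 21% and 6.29% of all rows. The 10 were Col3a1, Col1a1, Col14a1, Col1a2, Col5a1, Col5a2, Loxl2, Col18a1, Col6a2 and Lox. Between repeated and first atrophy 0 of 46 members passed by limma, beside 0.0143% of all rows higher and 0.0214% lower. At an unadjusted p under 0.05 there was 1 member, beside 6.3% of all rows. These comparisons share groups with those against control. With the animal as a block, 0 members passed in all 3 of them, beside 0.0143%, 0.0855% and 0% of all rows. Col3a1, for example, was 3.17 log2 units higher in recovery than in atrophy (SE 0.67, adjusted p = 0.0085), and 1.22 in the block fit (adjusted p = 0.63). In repeated atrophy against recovery its log2 fold change was -3.04 (SE 0.67, adjusted p = 0.0043), and -1.63 in the block fit (adjusted p = 0.19).

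The right limbs of the recovery animals were themselves high in Col3a1 and Col1a1. Their right TA held 166.8, 144.7 and 92.57 CPM of Col3a1, against 43.33, 31.18 and 26.32 CPM in the right limbs of the atrophy animals and 37.34, 48.97 and 62.29 CPM in those of the repeated atrophy animals. For Col1a1 the values were 77.89, 118.8 and 69.45 CPM, then 25.17, 15.59 and 12.44 CPM, and then 15.68, 29.54 and 37.4 CPM. In both genes all 3 right limbs of recovery animals were above the other 6 right limbs, although none of them received TTX. Between the right limbs of recovery and atrophy animals, 184 of 14031 rows passed (1.31%), 3 of them members: Col1a1 (log2 difference 2.28, SE 0.53, adjusted p = 0.045), Col1a2 (2.17, SE 0.50, adjusted p = 0.046) and Col15a1 (1.53, SE 0.33, adjusted p = 0.034). Between the right limbs of recovery and repeated atrophy animals 0 rows passed by limma. At an unadjusted p under 0.05 there were 17 members in the first of these comparisons and 8 in the second, beside 18.2% and 6.91% of all rows. The animals, the time of harvest and the history of the opposite leg differ together between these right limbs and cannot be told apart. Against their own 3 right limbs, unpaired, the recovery limbs had 1 member higher, Col5a2 (log2 fold change 1.77, adjusted p = 0.037), and 1 lower, Col11a2 (adjusted p = 0.043), beside 0.249% and 0.0998% of all rows. In the same comparison 3 members were higher (Plod2, Bmp1 and Col26a1) and 3 lower (P4ha1, Col18a1 and Col27a1) after repeated atrophy, beside 22.1% and 5.05% of all rows, and 0 passed after atrophy by limma, with 9 members and 17.7% of all rows at an unadjusted p under 0.05.

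**Figure D4:**
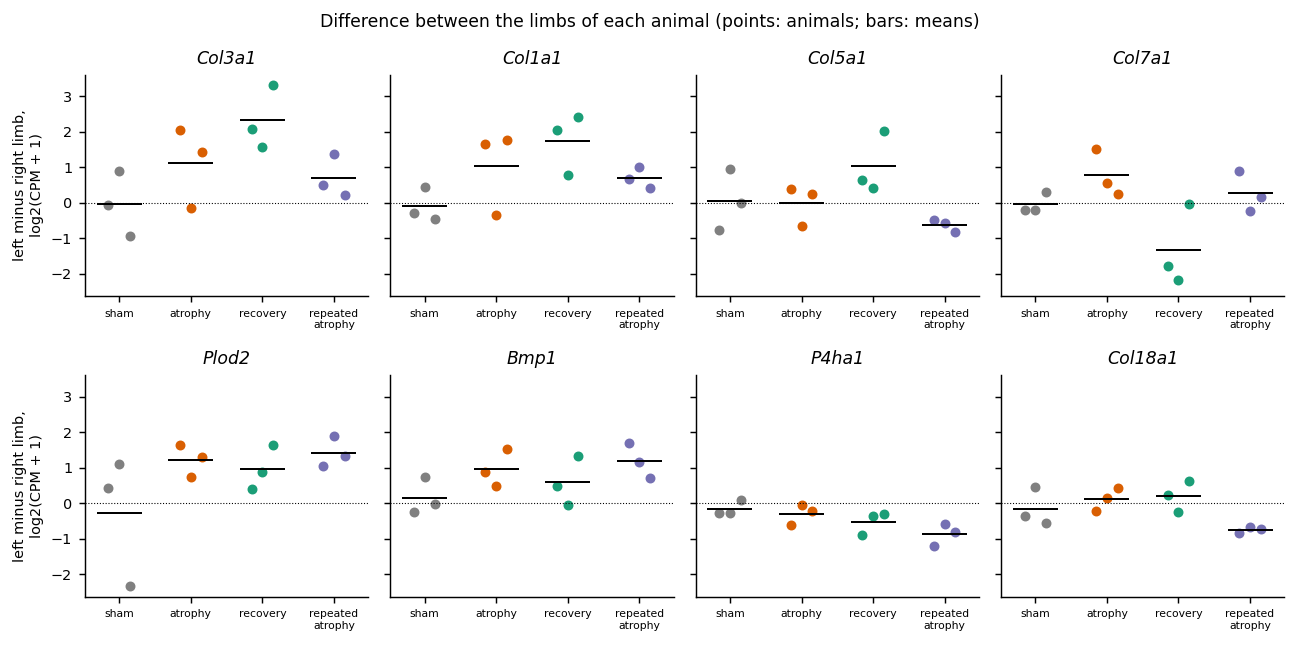
Left minus right limb of each animal in log2(CPM + 1) (y axis) for 8 members, by group of animals (x axis), with points for animals, bars for group means and a dotted line at no difference. Col3a1 is above 0 in 3 of 3 recovery and 3 of 3 repeated atrophy animals and in 2 of 3 atrophy animals, Plod2 is above and P4ha1 below 0 in 9 of 9 TTX animals, and the sham animals spread around 0.

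Within animals, the order of the groups was less sharp. The left TA exceeded the right in Col3a1 by 2.09, 1.57 and 3.33 log2 units in the recovery animals, by 2.06, -0.16 and 1.44 in the atrophy animals and by 0.50, 1.39 and 0.22 in the repeated atrophy animals. In Col1a1 the differences were 2.04, 0.78 and 2.42, then 1.66, -0.34 and 1.77, and then 0.68, 1.00 and 0.41. Over all TTX animals the left limb was higher in 8 of 9 for both genes, and the exception was the same atrophy animal, 367. Col1a1 and Col3a1 therefore stood above the animal's own right limb after atrophy in 2 of 3 animals. Without animal 367, 6 members were called higher after atrophy instead of 1 (Plod2, Bmp1, Lox, Col5a2, Col11a1 and P4ha3), beside 30.7% of all rows in that fit, and P4ha1 stayed lower. Without animal 362 or 372, 0 were higher, beside 0.00715% and 11.9% of all rows. Its left TA also held 179801 CPM of the myofibre genes, against 79102 and 91743 CPM in the other atrophy limbs.

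In the sham animals 0 of 45 members tested passed between the left limbs and the control limbs (0% of all rows by limma), and 4 had an unadjusted p under 0.05, as did 1904 of 13822 rows. The sham limbs themselves varied widely: Col3a1 held 31.8, 175.7 and 9.7 CPM in the left and 33.35, 93.86 and 19.45 CPM in the right limbs. The highest value on each side came from the sham animal of the recovery time point, and with 1 animal at each time, animal and time cannot be told apart. No sham limb reached the lowest recovery limb at 432.8 CPM. Plod2 in the sham animals held 7.735, 11.95 and 3.382 CPM in the left and 5.533, 5.066 and 21.24 CPM in the right limbs, and 1 left and 1 right limb therefore lay inside the range of the atrophy limbs, the right one inside that of the repeated atrophy limbs as well.

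The other genes of collagen assembly were taken from lists, whose counts stand against the 20.3%, 4.4% and 28.1% of all rows called higher after atrophy, recovery and repeated atrophy. Of 17 collagen-binding proteoglycans and fibril regulators in the table, 10 were higher after recovery and 0 lower, while 2 were higher and 0 lower in each of the other comparisons. In the block fit 0 were called in recovery or first atrophy and 1 was higher in repeated atrophy. Postn (periostin) averaged 6.76 CPM in control and 39.9, 77.2 and 14.1 CPM in the atrophy, recovery and repeated atrophy groups (log2 fold change after recovery 3.25, SE 0.55, adjusted p = 0.0029, and 0.11 in the block fit). Lum (lumican) averaged 16.2 CPM in control and 97.2 CPM after recovery (log2 fold change 2.58, SE 0.43, adjusted p = 0.0028, and 0.11 in the block fit). Bgn (biglycan) differed from both in passing in all 3 comparisons, with log2 fold changes of 1.43, 1.95 and 2.54 and an adjusted p of 0.0081 after repeated atrophy in the block fit.

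Of 13 other folding and secretion genes, recovery had 6 higher, atrophy 3 and repeated atrophy 4, with 0 lower. The counts of the atrophy groups were near the 20.3% and 28.1% of all rows called higher there. In the block fit these were 0, 0 and 4, beside 0.0641%, 0% and 27.1% of all rows called in either direction. Sparc, a collagen chaperone of the matrix, was the leading one in recovery (on average 504.7 CPM against 220 CPM in control, log2 fold change 1.21, SE 0.20, adjusted p = 0.0024, and 0.12 in the block fit). P4hb, the protein disulfide isomerase that is the β subunit of prolyl 4-hydroxylase and serves other proteins too, was higher under TTX. It averaged 268.7 CPM in control, 532.1 and 570.5 CPM in the first and repeated atrophy groups and 203.5 CPM in recovery (log2 fold change in repeated atrophy 1.14, SE 0.23, adjusted p = 0.0014, and 0.01 in the block fit). P4hb and P4ha1, partners in 1 enzyme, thus differed in direction after repeated atrophy. Tmem38b, an ion channel of the endoplasmic reticulum needed for collagen export in bone and also abundant in muscle fibres, averaged 180.4 CPM in control and 730.1 CPM after repeated atrophy (log2 fold change 2.10, SE 0.32, adjusted p = 0.00021, and 0.0048 in the block fit).

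Of 17 genes of TGF-beta signalling, a main inducer of fibrillar collagen, 6 were higher in each of the atrophy groups and 0 in recovery, and 0 were lower, beside 20.3% and 28.1% of all rows higher in the atrophy groups. In the block fit 0 were called after atrophy, and 6 were higher and 1 lower after repeated atrophy. In recovery, where the fibrillar collagens stood highest, 4 of the 17 had an unadjusted p under 0.05 by limma, near the 25.1% of all rows. Tgfb2 held 355.9, 52.06 and 209.2 CPM after atrophy, 33, 35.98 and 69.64 CPM after recovery and 250.9, 270.8 and 216.5 CPM after repeated atrophy, against 14.04 to 32.5 CPM (median 28.19) in the control limbs. All treated limbs were above the control range, by least in recovery. Its log2 fold change after repeated atrophy was 3.30 (SE 0.40, adjusted p = 4.3e-05, and 0.0035 in the block fit). Of 9 collagen receptors, 2 were higher in each of the atrophy groups and 0 by limma in recovery (2 at an unadjusted p under 0.05), close to the share of all rows higher in the atrophy groups. In the block fit 0 receptors were called after atrophy and 2 were higher after repeated atrophy. Itga11, the integrin subunit of fibroblasts that binds fibrillar collagen, had a log2 fold change in repeated atrophy of 1.64 (SE 0.37, adjusted p = 0.0024, and 0.013 in the block fit).

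Of 12 genes of collagen breakdown and its inhibitors, 4 were higher after recovery: Mmp2, a gelatinase, Ctsk, a lysosomal collagenase, Fap, a fibroblast surface protease, and Timp1, an inhibitor of metalloproteinases. Their log2 fold changes were 1.29, 1.49, 1.95 and 1.56, with adjusted p in the block fit of 0.18, 0.18, 0.10 and 0.22. Timp1 was also the 1 gene of the list higher after atrophy (log2 fold change 1.06). Timp2 was the 1 gene higher after repeated atrophy (log2 fold change 1.73, SE 0.31, adjusted p = 0.00058, and 0.0047 in the block fit). Of 6 basement membrane partners, the laminin chain Lama5 was higher in both atrophy groups, at 71.53 and 150 CPM on average against 25.61 CPM in control and 20.19 CPM in recovery. Lamb2 was lower and Lamc1 higher after repeated atrophy. In the block fit 0 partners were called after atrophy, and 1 was higher and 1 lower after repeated atrophy. The type IV chains did not pass in these comparisons.

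Markers of fibroblasts and other cells were read beside the recovery result. Of all rows, 4.4% were called higher and 3.33% lower in recovery, and 20.3% and 28.1% higher after atrophy and repeated atrophy. Of 9 fibroblast markers, 4 were higher after recovery (Lum, Thy1, Dpp4 and Dcn) and 0 after atrophy or repeated atrophy, and their summed level was 718.6 to 1058 CPM after recovery, 390 to 992.1 in control, 497.6 to 611.8 in atrophy and 695.3 to 844.3 CPM in repeated atrophy. With the animal as a block, 0 fibroblast and 0 macrophage markers were called in recovery. Lum and Dcn are also on the list of collagen-binding proteoglycans. Of 6 macrophage markers, 3 were higher after recovery (Cd68, Mrc1 and Adgre1), with sums of 77.65 to 160.9 CPM against 29.3 to 97.47 CPM in control. Of 4 tenocyte markers in the table, 1 was higher after recovery (Thbs4), with sums of 70.6 to 145.7 CPM against 28.08 to 138.2 CPM, and Scx was higher after atrophy and repeated atrophy. Of 6 endothelial markers 1 was lower in recovery (Cldn5), with sums of 173 to 178.7 CPM against 183.2 to 263.3 CPM. Of the markers of smooth muscle and pericytes, Schwann cells and adipocytes, 0 passed by limma in recovery, with 0, 1 and 1 at an unadjusted p under 0.05. The part of these cells in the collagen result was not tested.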

How the data were processed

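RNA-seq of polyadenylated RNA was analysed in both TA muscles of 12 aged rats (24 samples). The authors removed contaminant reads with Bowtie2 2.2.5, used STAR for alignment to rn7, and worked in Partek Flow. The counting step is not given in the sources used here. The authors deposited CPM, since each column sums to 1000000, although their methods name the median of ratios of DESeq2. Of the columns, 3 matched no sample and were not used.

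Of 14271 rows, 28 exact duplicates were dropped, and for a symbol on several rows the row of highest mean was kept. Depth came from the step between low values. Between 87.7% and 89.4% of low values in a sample were whole multiples of it (tolerance 0.05), so reads were not treated as recovered and no count test was run. Intervals were not given, since depth is inferred. Values were log2(CPM + 1), so changes of low genes are understated. Rows above 0 in at least 3 samples entered limma 3.58.1 under R 4.3.3, using its intensity trend, with all 18 limbs of the TTX animals in 1 fit without a block, as in the study's pooling of right limbs. Python 3.11.15 and pandas 2.3.3 were used, and the fit was tested on simulated data.

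The labels give both limbs of each animal the same number, so limbs are paired by animal. The correlation of their deviations from the group means over 10619 genes ran from -0.321 to 0.53 in the TTX animals and from 0.618 to 0.841 in the sham animals. The members, classes, lists and tests were chosen with earlier results of these data known. Genes named with limb values are up to 4 per class with the largest change among those past the threshold and a mean of at least 10 CPM in 1 group, or else the class's most abundant member, with up to 4 per other list by the same rule, not all of which are printed. Samples of a group are separate animals. The alternatives tried were a pseudocount of 0.1, filters, a trimmed mean rescaling, the animal as a block, 12 right limbs or the sham right limbs as control, no trend, a fold change of 1.5 and leaving out each animal. The comparison with each group's own right limbs was added after the data were seen.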

Additional observations from a re-analysis of the deposited data

Results flagged for a closer look

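The right limb of recovery animal 370 stood apart from the other control limbs in Col26a1, at 0.147 CPM, by Dixon's criterion for 9 samples. Of the genes, 19 were checked in the control group, and chance alone flags about 1 in 20. In 4 cases every animal of 1 group had a difference between left and right limb in one direction and every animal of another group in the opposite one. The block fit compares these differences, and none passed in it. For Col5a1, the mean difference (left minus right limb, log2) in repeated atrophy minus that in recovery was -1.659, with a limma adjusted p of 0.13 in the block fit. For Col4a1 it was -0.426 in repeated atrophy minus recovery (adjusted p = 0.32 by limma) and -0.574 in repeated atrophy minus atrophy (adjusted p = 0.80 by limma). For Col7a1 the value in recovery minus that in atrophy was -2.101 (adjusted p = 0.57 by limma).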

How the results depend on the processing

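The 46 members were compared under each alternative. The animal as a replicate block took members higher and lower to 0 and 0 after atrophy, to 0 and 0 after recovery, to 0 and 0 in recovery against atrophy and to 0 and 0 in repeated atrophy against recovery, and left 3 higher and 2 lower after repeated atrophy. In this block the median of the fibrillar class became 0.25 in recovery against atrophy and -0.63 in repeated atrophy against recovery, that of all collagens 0.062 in recovery against atrophy, and that of the enzymes -0.11 there. Against their own right limbs, 0 members were higher and 0 lower after atrophy, and 1 higher and 1 lower after recovery. With a pseudocount of 0.1, 8 members were higher after recovery, the fibrillar median was 1.87 there, and the collagen median was 0.63 in recovery against atrophy and -0.64 in repeated atrophy against recovery. With only genes of a mean of at least 1 CPM, the fibrillar median was 1.73 in recovery against atrophy and -1.92 in repeated atrophy against recovery, and the collagen median 1.06 after recovery, 0.86 in recovery against atrophy and -1.13 in repeated atrophy against recovery, since fewer low genes enter. With the trimmed mean rescaling, 12 members were higher and 1 lower in recovery than in atrophy. In repeated atrophy against recovery it gave 1 higher and 15 lower. The enzyme medians under it were -0.077 after atrophy, -0.069 after repeated atrophy and -0.54 in repeated atrophy against recovery. Each animal left out in turn gave 0 to 6 members higher and 0 to 1 lower after atrophy, 5 to 14 higher and 0 to 3 lower after recovery (5 without animal 369 or 371 and 8 without 365), and 1 to 4 lower after repeated atrophy. It gave 4 to 8 higher and 1 to 3 lower in recovery against atrophy, and 1 to 5 higher and 6 to 11 lower in repeated atrophy against recovery. The other causes were not tested. No called value of a member changed sign. The rescaling moves all rows alike, so the sign of the enzyme medians under it says nothing about the enzymes. Among called values of single members, 276 stayed past the threshold and 78 fell short of it under the alternatives other than leaving out an animal. The values of the 14 members under 1 CPM rest on few reads.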
